A study of Drosophila melanogaster with 3 samples.

Results

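Aminoacyl-tRNA synthetases are the enzymes that load each amino acid onto its tRNA. The promoters of their genes were examined here for peaks of CrebB, the fly CREB-type basic leucine zipper transcription factor. The data were chromatin immunoprecipitation and sequencing (ChIP-seq) of Drosophila melanogaster embryos. Members were taken from the Ensembl annotation by symbol: a 3-letter amino acid code followed by RS, with an optional prefix (alpha-, beta- or Glu) and an optional suffix -m. This gave 35 genes of 13945 protein-coding genes, 20 with no suffix, called cytosolic here, and 15 with the suffix -m, called mitochondrial. The suffix alone sets the classes: some genes without it may serve both compartments, among them those for glycine, histidine, lysine and threonine, which have no -m counterpart here. The samples were 3 biological replicates of whole embryos, 0 to 24 hours old and of both sexes pooled, all from 1 transgenic line that stably expresses CrebB with GFP at its C terminus. There was no untreated or untagged group, so no condition was compared with another. What drives the transgene is not stated in the labels. The antibody label names CrebB in all 3 samples, whereas a free-text field calls them input controls; that conflict could not be settled from the peak lists. Since whole embryos were used, a peak does not say in which cells it arose.

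Cells need a synthetase activity for every amino acid in the cytosol and another set in mitochondria, which translate their own few messenger RNAs. Both sets are encoded in the nucleus. Some synthetases join 2 activities in 1 protein, as GluProRS does for glutamate and proline, and cytosolic PheRS is built of an alpha and a beta subunit from separate genes. In human cells the genes for the glycine and lysine enzymes each supply both compartments. In mammals, synthetase genes are also known targets of ATF4, a bZIP factor of the amino acid starvation response that is related to CREB.

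No exact CRE palindrome, the classical CREB site, lay within 100 bp of the 10 summits, which is no result about these genes, since 0.609% of all optimal promoter peaks held one. The bases at the summits of the strongest peaks are shown first. A summit is the position of highest signal in a peak, and each run below is the part outside annotated exons of the window reaching 50 bases to either side of it, on the strand of the synthetase gene in Release 6 (RefSeq copy, dm6 coordinates). Capitals mark matches to any of the 11 motifs searched. The IleRS run is chr3L:22288448-22288548, + strand, with the summit at base 51. The GluProRS run is chr3R:23958572-23958650, - strand, with the summit at base 29. The ArgRS-m run, of the strongest mitochondrial peak, is chr3R:7887011-7887044, + strand, and ends just before the gene's start. The TrpRS run is chr3R:9266961-9267018, - strand, with the summit at base 8, and is shown because it held a DRE, the site of DREF, a factor of housekeeping promoters.
IleRS: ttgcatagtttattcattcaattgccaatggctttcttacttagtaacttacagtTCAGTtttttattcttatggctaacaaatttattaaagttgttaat
GluProRS: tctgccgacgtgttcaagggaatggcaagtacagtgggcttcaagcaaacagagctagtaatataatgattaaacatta
ArgRS-m: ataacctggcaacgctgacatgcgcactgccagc
TrpRS: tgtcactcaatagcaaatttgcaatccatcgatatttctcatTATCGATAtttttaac
In the IleRS run the capitals are an initiator-like TCAGT. In the TrpRS run they are the DRE, and the GluProRS and ArgRS-m runs held none of the motifs. The ArgRS-m run stops short of its summit, and the motif CAGCTG lay within 100 bp of that summit. At SerRS only 7 bases of the window lay outside exons, and they are not shown.

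CrebB peaks lay at the promoters of 8 of the 20 cytosolic synthetase genes and 2 of the 15 mitochondrial ones. A promoter peak was one with its summit within 500 bp of a transcription start site (TSS) of the gene, and the count is over the 3915 peaks past the authors' reproducibility threshold, the optimal list. The cytosolic share was 40.0% (95% Wilson interval 21.9% to 61.3%) and the mitochondrial share 13.3% (3.74% to 37.9%), beside 18.7% of all protein-coding genes. The Wilson intervals cover the counting of genes only, and those of both classes overlap. The 8 cytosolic genes were IleRS, SerRS, GluProRS, beta-PheRS, ThrRS, TrpRS, MetRS and GlnRS. The 2 mitochondrial genes were ArgRS-m and PheRS-m. The difference of 26.7 percentage points depended on the rule: it was -3.33 when a peak counted only for the gene with the nearest TSS. It was 8.33 when all 3 replicates had to support the peak (3 and 1 genes), and 1.67 when replicate 1 was left out and both others had to support it (3 and 2 genes). Of all protein-coding genes, 9.67% and 11.4% had a promoter peak with such support.

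None of these peaks was among the strongest of the data set. The signal, the peak caller's own value with no stated scale, ran from 162.6 at GlnRS to 315.1 at IleRS over the 10 peaks, with a median of 214.0. Over all 2135 optimal promoter peaks it ran from 151.9 to 2859.8 with a median of 217.0. The synthetase peaks therefore lay near the middle of the optimal promoter peaks and far below the top. Each had a q-value, given by the authors' list, of at most 0.000444.

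IleRS, the isoleucine enzyme (FBgn0027086, chromosome 3L, 22288665 to 22292810, + strand), had the strongest peak of the family. It spanned 22288423 to 22288557, a width of 135 bp where the median optimal peak had 396 bp, and ranked 959 of the pooled list, which was called on the 3 replicates together. Its rank was 824, 1303 and 929 in replicates 1, 2 and 3. SerRS, the serine enzyme (2L, 3035493 to 3037403, - strand), reached a signal of 291.2 in a peak from 3037218 to 3037613, which was pooled rank 1102, with ranks of 1958, 965 and 1062 in the replicates. GluProRS (3R, 23952136 to 23958391, - strand) reached 266.6 in a peak from 23958424 to 23958819, pooled rank 1292, with ranks of 1992, 1248 and 1159. These were the cytosolic peaks that all 3 replicates placed within 100 bp of the pooled summit and among their own 3915 peaks of highest signal.

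The remaining cytosolic peaks differed more between replicates, in rank or in position. For beta-PheRS, the beta subunit of the phenylalanine enzyme (3R, 24250460 to 24252679, - strand; signal 223.5, peak 24252432 to 24252827), the strongest promoter peak ranked 2153, 1506 and 2581 in replicates 1, 2 and 3, and the replicate 3 summit was 73 bp upstream of the TSS where the others were 59 and 74 bp downstream. ThrRS, the threonine enzyme (2L, 12103751 to 12107170, + strand; signal 204.5, peak 12103275 to 12103670), ranked 8569, 2523 and 960. It was strong in replicate 3 and weak in replicate 1. TrpRS, the tryptophan enzyme (3R, 9265027 to 9266904, - strand; signal 201.0, peak 9266813 to 9267208), ranked 2263, 2668 and 6685, the opposite order. For MetRS, the methionine enzyme (2R, 18846858 to 18850599, - strand; signal 164.9, peak 18850601 to 18850996), the strongest promoter peak ranked 4147, 12419 and 1738. The replicate 2 summit of rank 12419 was 70 bp upstream of the TSS, where the pooled summit was at 200 bp. Within 100 bp of the pooled summit, replicate 2 had a peak of rank 29452. GlnRS, the glutamine enzyme (3R, 25263267 to 25265721, - strand; signal 162.6, peak 25265620 to 25266015), ranked 3213, 4412 and 11914, with a q-value of 0.155 in replicate 3. MetRS thus ranked highest in replicate 3 and GlnRS in replicate 1.

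Of the mitochondrial enzymes, ArgRS-m (FBgn0037526, 3R, 7887045 to 7890150, + strand) had the steadier peak. Its signal was 251.2 over 7886863 to 7887258, pooled rank 1463, and it ranked 1932, 1149 and 1555 in the replicates, with summits 16, 16 and 81 bp downstream of the TSS. PheRS-m (2R, 13968308 to 13969902, + strand), the mitochondrial phenylalanine enzyme, had a signal of 204.3 over 13967993 to 13968388, pooled rank 2225. Its strongest promoter peak ranked 2923, 3410 and 1816, with the summit 32 bp downstream of the TSS in replicate 1 and 120 and 126 bp upstream in replicates 2 and 3. In all, 4 of the 10 family peaks had the support of all 3 replicates at the pooled summit, beside 49.3% of all optimal promoter peaks. The optimal list was itself derived from these replicates, so this count is a description.

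**Figure D1:**
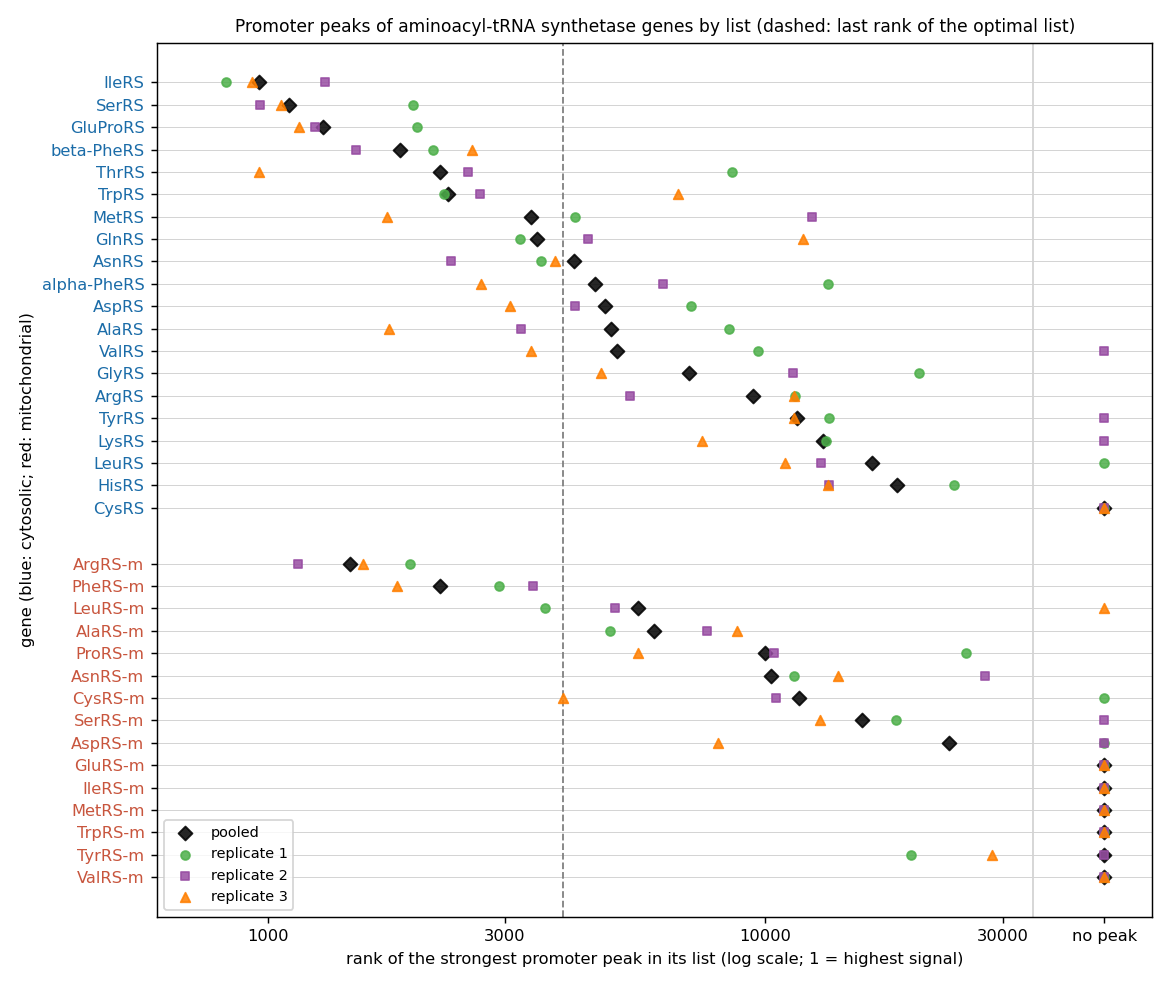
Rank of the strongest promoter peak of each synthetase gene (x axis, log scale, 1 is the highest signal) in the pooled list and in replicates 1, 2 and 3, with genes on the y axis, cytosolic above mitochondrial. The dashed line is rank 3915, the end of the optimal list, and the column at the right holds genes with no promoter peak in a list of 30000. IleRS, SerRS, GluProRS, beta-PheRS, ArgRS-m and PheRS-m lie left of the line in all 4 lists, and 5 mitochondrial genes have no promoter peak in any list.

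Many cytosolic promoters lay just below the threshold. In the pooled list, which runs far into weak signal, 19 of the 20 cytosolic genes (95%, Wilson interval 76.4% to 99.1%) and 9 of the 15 mitochondrial genes (60.0%, 35.7% to 80.2%) had a promoter peak, beside 56.8% of all protein-coding genes. AsnRS, the asparagine enzyme, had pooled rank 4134 and a signal of 146.7, against 151.9 for the last optimal peak. It ranked 3539, 2337 and 3773, inside the first 3915 peaks of each replicate, with summits 99 and 196 bp downstream of the TSS in replicates 1 and 2 and 91 bp upstream in replicate 3. This gene thus had a promoter peak among the strongest of all 3 replicates, at differing positions, and none in the optimal list. Next were alpha-PheRS (pooled rank 4548, signal 138.5), AspRS (4761, 134.7), AlaRS (4891, 132.4) and ValRS (5037, 130.3), the enzymes for phenylalanine (alpha subunit), aspartate, alanine and valine.

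Unlike AsnRS, which ranked lowest in replicate 3, the other 4 near-threshold genes ranked highest there. These ranks are of the strongest promoter peak in each replicate, which need not lie at the pooled summit. alpha-PheRS ranked 13365, 6220 and 2684 in replicates 1, 2 and 3. AspRS ranked 7107, 4140 and 3067. AlaRS ranked 8438, 3224 and 1750. ValRS ranked 9650 in replicate 1 and 3377 in replicate 3 and had no promoter peak in replicate 2. In each of these 4 genes replicate 3 gave the highest rank and, among the lists with a peak, replicate 1 the lowest.

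The other cytosolic genes had weaker peaks. GlyRS had pooled rank 7022 and ranked 20359, 11362 and 4671 in the replicates. ArgRS had pooled rank 9472, TyrRS 11586, LysRS 13082, LeuRS 16395 and HisRS 18378. Of these, LeuRS had no promoter peak in replicate 1, and LysRS and TyrRS had none in replicate 2. HisRS had a promoter peak in every replicate, but with q-values of 0.378, 0.144 and 0.207. CysRS, the cysteine enzyme (2R, 16143147 to 16145906, + strand), was the cytosolic gene with no promoter peak in any list, and its nearest pooled summit lay 1069 bp from its TSS.

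Among mitochondrial genes, 7 had a promoter peak in the pooled list but not in the optimal list. LeuRS-m had pooled rank 5561 and ranked 3612 and 4980 in replicates 1 and 2, and replicate 3 had no promoter peak there. AlaRS-m had pooled rank 5973, and ranks of 4875, 7637 and 8792. ProRS-m (10012), AsnRS-m (10289), CysRS-m (11672), SerRS-m (15682) and AspRS-m (23389) were weaker. CysRS-m stood at rank 3921 in replicate 3 and had no promoter peak in replicate 1. GluRS-m, IleRS-m, MetRS-m, TrpRS-m and ValRS-m had no promoter peak in any list, with the nearest pooled summit from 2372 bp away at GluRS-m to 17246 bp at MetRS-m. TyrRS-m had weak promoter peaks in replicates 1 and 3 alone, at ranks 19614 and 28509.

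Read in each replicate alone, the cytosolic genes had the larger share 3 times of 3. Among the 3915 peaks of highest signal, 7, 8 and 11 cytosolic genes had a promoter peak in replicates 1, 2 and 3 (8.67 ± 2.08, SD, n = 3), and 3, 2 and 2 mitochondrial genes did (2.33 ± 0.577). All protein-coding genes stood at 18.3%, 18.1% and 19.3%. The difference in share, cytosolic minus mitochondrial, was 15, 26.7 and 41.7 percentage points (mean 27.8 ± 13.4). This spread is between replicates that score the same genes, and does not cover the small number of genes in each class. A sign-flip test over 3 replicates cannot go below p = 0.25 (exact, two-sided), so none was used. In the full replicate lists 18, 16 and 19 cytosolic and 8, 7 and 9 mitochondrial genes had a promoter peak, where all genes stood at 55.8%, 54.9% and 55.7%, and the difference was 35.0 ± 1.67 percentage points (SD, n = 3). The membership moved between replicates: GlnRS was among the 3915 only in replicate 1, and AspRS, MetRS, ValRS and alpha-PheRS only in replicate 3. The median rank of the strongest promoter peak, counting genes with none as last, was 4654.5 for cytosolic, 15682 for mitochondrial and 19600 for all protein-coding genes in the pooled list. For the cytosolic genes it was 8503.5, 4884 and 3575 in replicates 1, 2 and 3, where all genes gave 21921, 23129 and 21844. The mitochondrial median was 25337 in replicate 1, below the standing of all genes, and 13989 in replicate 3, above it. In replicate 2 it had no value, since 7 of the 15 mitochondrial genes had a promoter peak.

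**Figure D2:**
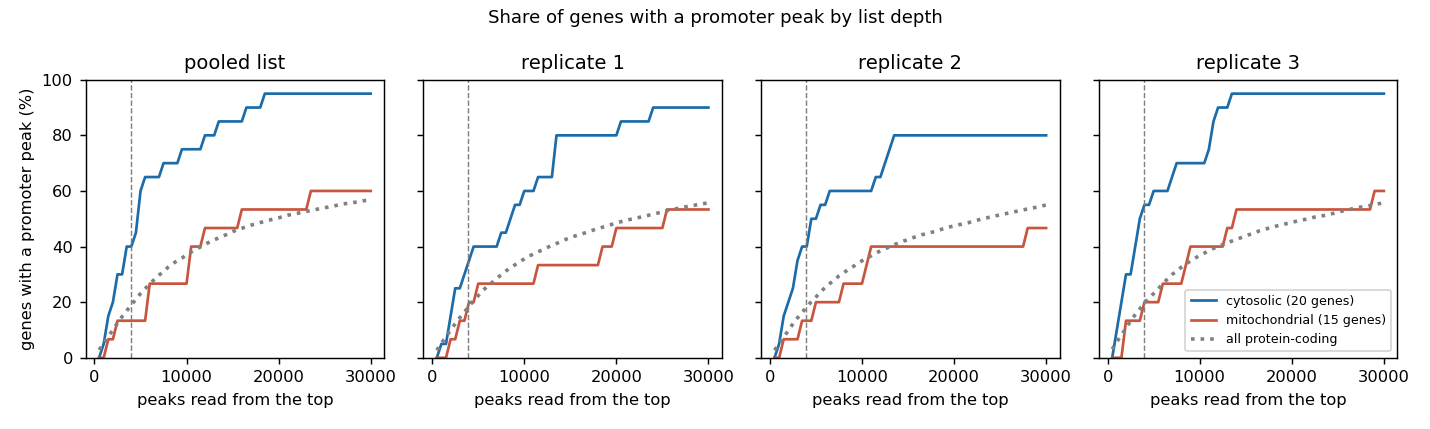
Percent of cytosolic (20), mitochondrial (15) and all protein-coding genes with a promoter peak (y axis) as more peaks are read from the top of each list (x axis, number of peaks), in the pooled list and in each replicate. The dashed line marks 3915 peaks. The cytosolic curve reaches 95% in the pooled list, while the mitochondrial curve ends at 60.0%, near the 56.8% of all genes.

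Within the amino acids that have genes of both kinds, the cytosolic gene usually had the stronger promoter peak. There were 15 such amino acids, with GluProRS counted for glutamate and for proline and the better of the 2 PheRS subunits taken. The cytosolic gene ranked higher for 12 of them in the pooled list and for 11, 10 and 12 in replicates 1, 2 and 3. A gene with no promoter peak was counted as last. That held in the pooled list for the mitochondrial genes of glutamate, isoleucine, methionine, tryptophan, tyrosine and valine. Peaks nearer to the TSS of another gene, such as that of SerRS, were counted here. Arginine was the constant exception: ArgRS-m ranked higher than ArgRS in the pooled list (1463 against 9472) and in each replicate. The others in the pooled list were leucine (LeuRS-m 5561, LeuRS 16395) and cysteine, where CysRS had no peak. Phenylalanine was close, with beta-PheRS at 1846 and PheRS-m at 2225. Glutamine, glycine, histidine, lysine and threonine had no gene with the suffix -m.

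Most of these peaks lay between a synthetase gene and a second gene that starts nearby on the other strand. Of the 10 optimal peaks, 8 were within 500 bp of a TSS of another protein-coding gene, where 30.8% of the 2135 optimal promoter peaks were. These shares differ in unit: the 10 peaks were reached through their genes, whereas the 30.8% counts peaks. A shared peak can be reached through several genes, so a share counted over all genes with an optimal peak would be higher than 30.8%. That share was not computed, so the size of the contrast is not known. In 6 of the 8 cytosolic cases the other gene's TSS was the nearer one. The GluProRS summit was 231 bp upstream of GluProRS and 29 bp upstream of AP-1sigma, a clathrin adaptor subunit gene. The TrpRS summit was 107 bp upstream of TrpRS and 8 bp upstream of Vps16A, a gene of endosomal tethering. The GlnRS summit was 97 bp upstream of GlnRS and 26 bp upstream of RIOK2, a kinase gene of small ribosomal subunit maturation. The MetRS summit was 200 bp upstream of MetRS and 45 bp upstream of CG15084, and the ThrRS summit 278 bp upstream of ThrRS and 188 bp upstream of Patsas. The SerRS summit fell 13 bp upstream of SerRS and 5 bp downstream of the start of CG17260.

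Where the synthetase gene had the nearer start, the picture was different. The IleRS summit was 167 bp upstream of IleRS and 303 bp upstream of Hem, a subunit gene of the actin-regulating SCAR complex. The ArgRS-m summit was 16 bp inside ArgRS-m and 328 bp upstream of CG17816. beta-PheRS and PheRS-m had no other gene start within 500 bp of the summit. When a peak was given only to the gene with the nearest TSS, 2 of 20 cytosolic genes (10%) and 2 of 15 mitochondrial genes (13.3%) had an optimal peak, beside 14.5% of all protein-coding genes. In the pooled list the same rule left 10 of 20 (50%) and 9 of 15 (60.0%), beside 48.7%. So the excess of cytosolic genes was not present under this rule. Which of the paired genes a peak acts on cannot be told from its position.

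**Figure D3:**
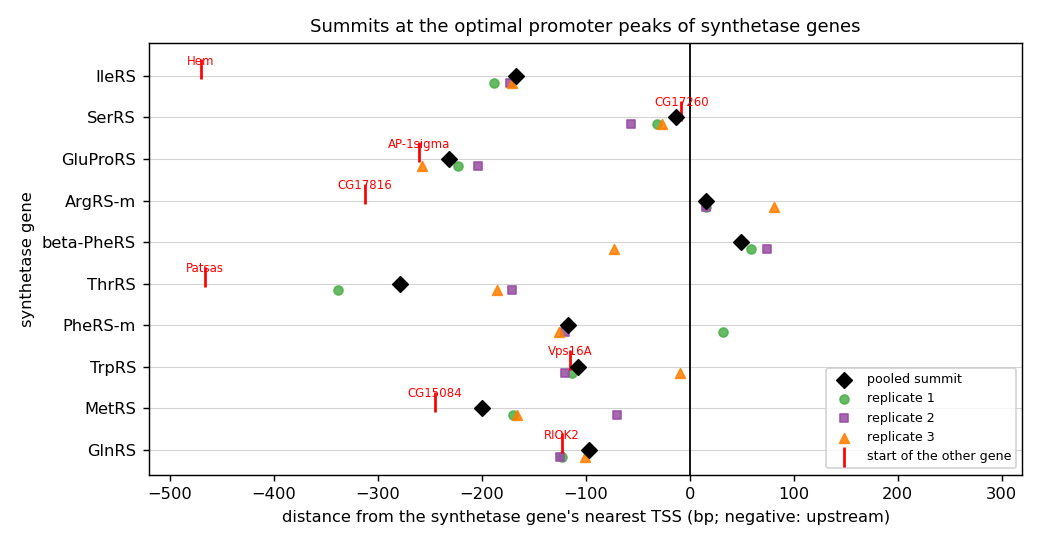
Position of the summit at the 10 synthetase genes with an optimal promoter peak (x axis, distance in bp from the synthetase gene's nearest TSS, negative upstream; y axis, genes by rank). Diamonds are the pooled summit, other points the strongest promoter peak of each replicate, and red ticks the start of the other gene. At GluProRS, TrpRS, GlnRS, MetRS, ThrRS and SerRS the pooled summit is closer to the red tick than to the synthetase start at 0.

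The arrangement itself differed between the classes. A gene was counted as having a divergent neighbour when a gene on the other strand started between 1000 bp upstream and 500 bp downstream of its own 5' end. Of the cytosolic genes 17 of 20 (85%, Wilson interval 64.0% to 94.8%) had one, of the mitochondrial genes 7 of 15 (46.7%, 24.8% to 69.9%), and of all protein-coding genes 35.9%. Related families were high too: 79.5% of mitochondrial ribosomal protein genes, 59.8% of cytosolic ribosomal protein genes and 50% of translation factor genes had such a neighbour. Examples are the pairs of AspRS with Lfg (38 bp apart), LysRS with Hecw (62 bp), LeuRS-m with Dhc64C, the dynein heavy chain gene (166 bp), and GlyRS with Plp (418 bp). Genes of all kinds with such a neighbour had an optimal promoter peak in 30% of cases and those without in 12.3%. Among genes with a divergent neighbour, 7 of 17 cytosolic (41.2%, 21.6% to 64.0%) and 1 of 7 mitochondrial genes (14.3%, 2.57% to 51.3%) had an optimal peak. Among those without, 1 of 3 and 1 of 8 did. The interval of the cytosolic share thus held the 30% of all genes of like arrangement.

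In the pooled list the arrangement separated the genes more fully. All 17 cytosolic genes with a divergent neighbour had a pooled promoter peak, as did 6 of 7 mitochondrial ones, beside 76.4% of all such genes. Of the genes without a neighbour, 2 of 3 cytosolic and 3 of 8 mitochondrial genes had one, beside 45.9%. Of the 6 mitochondrial genes with none in the pooled list, TyrRS-m alone had a divergent neighbour, CG3589. This split by arrangement was chosen after the values were seen, and the part of the arrangement in the difference between the classes was not tested.

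**Figure D4:**
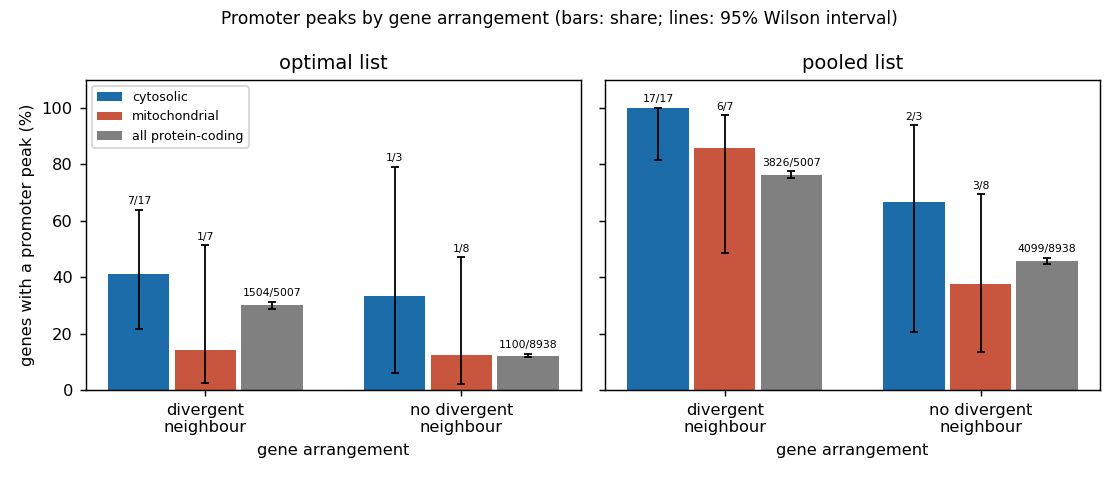
Percent of genes with a promoter peak in the optimal list (left) and the pooled list (right) on the y axis, for genes with and without a divergent neighbour on the x axis, with counts above the 95% Wilson intervals. In both lists all protein-coding genes (grey) have a higher share with a divergent neighbour (30% and 76.4%) than without (12.3% and 45.9%).

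Summits lay mostly upstream of the synthetase start. In the pooled list 17 of the 19 cytosolic genes (89.5%) and 6 of the 9 mitochondrial genes (66.7%) had the summit upstream of their TSS, where 68.2% of all genes with a pooled promoter peak did. The median distance to the gene's own TSS was 139 bp for cytosolic and 81 bp for mitochondrial genes, where it was 112 bp for all genes. ValRS (456 bp) and AspRS (379 bp) had the most distant upstream summits of the cytosolic genes.

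No exact match to the CRE palindrome or to the composite site read by ATF4 was found in these promoters. Both were rare in all promoters, so this absence is no result about these genes. Motifs were searched on both strands in the 300 bases from 250 before to 50 after each gene's 5' end. The CRE palindrome TGACGTCA was in 0 of 35 synthetase promoters and in 0.437% of all promoters. The CRE and C/EBP composite TGATGCAA, the type of site read by ATF4, was in 0 of 35 and in 0.817%. The shorter CRE core TGACG, which the palindrome also contains, was in 5 of 20 cytosolic (25.0%) and 3 of 15 mitochondrial promoters (20%), beside 23.8% of all. Within 100 bp of the summits it was at 2 of 10 optimal peaks (IleRS and SerRS), beside 17.5% of all optimal promoter peaks.

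Other promoter elements, among them the DRE of housekeeping promoters, were found in several members. The DRE TATCGATA was in the promoters of AlaRS, ArgRS, IleRS and TrpRS (4 of 20) and of PheRS-m (1 of 15), beside 9.36% of all promoters, and within 100 bp of 1 of the 10 summits, that of TrpRS, where it is in capitals above, beside 6.93% of all optimal promoter peaks. The M1BP site GGTCACACT was in those of GlnRS, beta-PheRS, AsnRS-m, AspRS-m and ProRS-m, beside 6.05% of all, and within 100 bp of 0 of the 10 summits, beside 3.89%. The E-box CACGTG, a Myc-type site, was in the promoters of GlnRS and LeuRS-m, beside 4.2%, and near 1 of the 10 summits, that of GlnRS, beside 3.47%. The TATA box TATAAA was in 12 of 20 cytosolic and 7 of 15 mitochondrial promoters, beside 45.8%, and near 1 of 10 summits, beside 27.5%. The initiator TCAGT was in 11 of 20 and 8 of 15, beside 51.5%, and near 2 of 10 summits, beside 34.1%. GAGAGAGA was in the ArgRS-m promoter alone, and the 8-base ewg site GCATGCGC in none, beside 3.03% and 1.05%.

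The E-box CAGCTG was the motif in which the synthetase promoters stood farthest, in percentage points, from all promoters. It was in 17 of 35 (48.6%): 10 of 20 cytosolic and 7 of 15 mitochondrial, beside 17.7% of all promoters. Among all genes its share was 21.9% with a divergent neighbour and 15.3% without, and among the members 13 of 24 and 4 of 11. Mitochondrial ribosomal protein genes had it in 40 of 73 (54.8%), whereas cytosolic ribosomal protein genes had it in 9 of 92 (9.78%) and genes of eIF and eEF translation factors in 4 of 52 (7.69%). The hexamer was in 6 of 10 members with an optimal peak (60%) and in 11 of 25 without (44%). Over all protein-coding genes these shares were 23.6% and 16.3%. With so few members, no reading is drawn from this. Within 100 bp of the summit the hexamer was at 4 of the 10 optimal peaks, beside 15.2% of all optimal promoter peaks. It was singled out here after the values of all 11 motifs were seen.

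The sites below, with CAGCTG in capitals and up to 10 bases on either side, show where the E-box lies. They are on the strand of the gene, in dm6 coordinates. The IleRS site (chr3L:22288576-22288601) begins 79 bp upstream of the 5' end, that of SerRS (chr2L:3037517-3037542) 129 bp and that of TrpRS (chr3R:9267021-9267046) 132 bp. Those of the 4 mitochondrial genes shown begin 21 bp downstream in ArgRS-m (chr3R:7887056-7887081), 10 bp downstream in LeuRS-m (chr3L:4825853-4825878), 5 bp upstream in MetRS-m (chr3R:14259981-14260006) and 27 bp upstream in TrpRS-m (chr3L:17849690-17849715). Of the sites not shown, the farthest from the 5' end were cytosolic, 245 bp upstream in alpha-PheRS and 241 bp upstream in MetRS. Nearer cytosolic ones lay 7 bp upstream in CysRS, 28 bp downstream in GluProRS, 31 bp downstream in HisRS and 47 bp upstream in ArgRS. In the mitochondrial gene AlaRS-m, sites not shown lay 68 and 62 bp upstream.
IleRS: gtgctgtcgtCAGCTGattatcaagg
SerRS: ctattttgaaCAGCTGctaaaagcaa
TrpRS: tgcagcgcaaCAGCTGattttccaga
ArgRS-m: gatgtcaaaaCAGCTGatgtgcagcg
LeuRS-m: tgcagagaaaCAGCTGttcgattgta
MetRS-m: actggtggcaCAGCTGttcaatgtta
TrpRS-m: tcactgttcaCAGCTGtcgtaccggc
Of these 7 genes, MetRS-m and TrpRS-m had no promoter peak in any list, so the hexamer was present at promoters with and without a called peak.

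**Figure D5:**
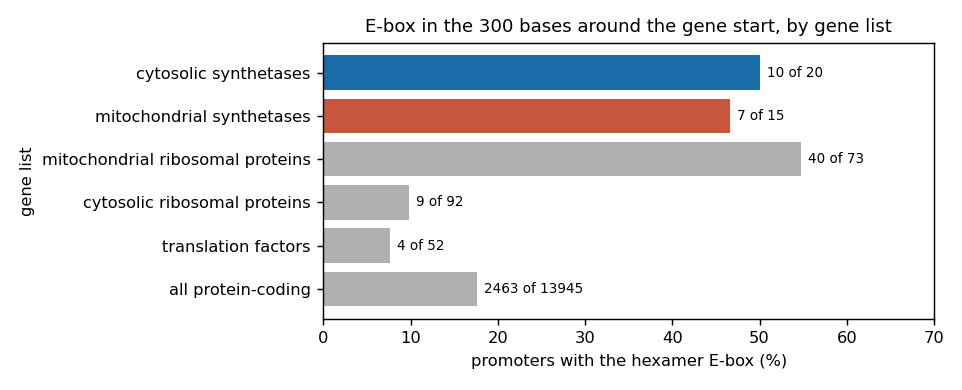
Percent of promoters, 300 bases around the gene's 5' end, that hold the E-box CAGCTG (x axis) in each gene list (y axis), with counts at the bars. Both synthetase classes (50% and 46.7%) stand near the mitochondrial ribosomal protein genes (54.8%) and above all protein-coding genes (17.7%).

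Beside related gene families, the synthetases held a middle place. An optimal promoter peak was found at 75 of 92 cytosolic ribosomal protein genes by symbol (81.5%, Wilson interval 72.4% to 88.1%), 17 of 52 translation factor genes (32.7%, 21.5% to 46.2%) and 18 of 73 mitochondrial ribosomal protein genes (24.7%, 16.2% to 35.6%). Of these families, the mitochondrial ribosomal protein genes most often had a divergent neighbour. The part of the arrangement in these shares was not tested. The 35 synthetase genes together stood at 10 (28.6%, 16.3% to 45.1%). Among genes with any pooled promoter peak, 8 of 19 cytosolic (42.1%) and 2 of 9 mitochondrial synthetase genes (22.2%) had an optimal peak, beside 32.9% of all such genes. The cytosolic interval there ran from 23.1% to 63.7%.

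Partners of the synthetases were described by a list of 17 pathway genes, of which 16 were matched. All 16 had a pooled promoter peak, beside 56.8% of all protein-coding genes, and 2 of 16 had an optimal one, a share near the 18.7% of all genes. GatA, a subunit of the amidotransferase that completes glutamine-tRNA in mitochondria, had a signal of 351.5, pooled rank 768 and ranks of 753, 977 and 737. It was stronger than any synthetase gene in the pooled list and in replicates 1 and 3, whereas SerRS ranked 965 in replicate 2. Thor, the translational inhibitor 4E-BP, had a signal of 426.8 and pooled rank 506. The other amidotransferase subunits were weaker, with GatC at pooled rank 5951 and GatB at 11783. The scaffold genes of the multi-synthetase complex, AIMP1, AIMP2 and AIMP3, had pooled ranks of 4027, 8538 and 12348. AIMP1 ranked 1740 in replicate 1 and had no promoter peak in replicate 3. The amino acid sensing kinase Gcn2 and crc, the fly ATF4, had ranks of 6540 and 5515, and Slimp, a paralogue of the mitochondrial serine enzyme, 8877. Of the mitochondrial translation factor genes, mIF2 had 5442, mEFTu1 6925, mEFTs 10464, mEFTu2 14083, mEFG1 17405 and mIF3 27839.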

How the data were processed

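The authors made a dm6 peak list for each replicate with 1 control alignment, a pooled list from all 3, and from these the optimal list, per the text files deposited beside them; aligner and caller are not given in the sources used here. The deposited signal is the caller's own value, used to rank peaks within a list. The −log10 q-value per peak is the authors' own. The optimal list equals the 3915 strongest of 30000 pooled peaks. Read depth is unknown.

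Gene models were Ensembl release 115, with 19607 TSSs for 13945 protein-coding genes of the main chromosome arms. Bases were read from RefSeq (Release 6). Support meant a summit within 100 bp among a replicate's 3915 strongest peaks. Intervals are 95% Wilson. No set test or p-value over the genes was used. All members were named; members, lists and motifs were chosen with earlier results of these data known. One listed pathway symbol, mEFG2, had no match. Alternatives changed TSS distance and choice, peak overlap, list depth, support distance, replicates, promoter window and nearest-gene assignment. Peak to gene matching was checked on simulated positions. Analyses used Python 3.11.15, pandas 2.3.3, numpy 2.4.6 and scipy 1.17.1.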

Additional observations from a re-analysis of the deposited data

How the results depend on the processing

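The 8 cytosolic and 2 mitochondrial genes with an optimal promoter peak, and the difference of 26.7 percentage points between their shares, depended on how peaks were assigned. When the peak had to overlap a TSS, 4 cytosolic genes were left (20%, beside 13.0% of all protein-coding genes) and the difference was 6.67. When the gene had to own the nearest TSS, 2 cytosolic genes were left and the difference reversed to -3.33. In the stronger part of the optimal list (1957 peaks) 4 cytosolic and 1 mitochondrial genes were left. With support by all 3 replicates 3 and 1 were left, a difference of 8.33. These sets hold fewer peaks by construction. In them the cytosolic shares were 20% and 15% and the mitochondrial share was 6.67% in both. All protein-coding genes stood at 9.82% and 9.67%. With support required from both remaining replicates after leaving out 1, all protein-coding genes stood at 11.1% to 12.1%. The counts were 3 to 5 and 1 to 2, and the difference was 1.67 to 18.3. Without replicate 1 it was 1.67 (GluProRS, IleRS and SerRS against ArgRS-m and PheRS-m). TSS distances of 250 and 1000 bp, the gene's 5' end as its sole TSS, and amino acids with both kinds of gene gave differences of 20 to 26.7. Among genes with and without a divergent neighbour, a split added later, it was 26.9 and 20.8.

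In the replicate lists the mean counts, 8.67 cytosolic and 2.33 mitochondrial, became 3.67 and 1.33 with 1957 peaks and 17.7 and 8.0 with full lists. With 7830 peaks the mean counts were 11.7 cytosolic and 4.0 mitochondrial, and with q under 0.05 they were 12.7 and 4.33. The share of all protein-coding genes also rose as more peaks were read. Support by all 3 replicates fell from 4 to 2 peaks with 1957 replicate peaks. Shared peaks fell from 8 to 5 at 250 bp. For the 10 members with an optimal peak, motifs were also counted in 200 bases at the summit instead of the 300 of the promoter. The CRE core went from 5 to 2, the DRE from 3 to 1, M1BP from 2 to 0 and GAGA from 1 to 0. TATA went from 3 to 1, the initiator from 6 to 2 and CAGCTG from 6 to 4. A shorter window holds fewer matches by its length. TATA was in 45.8% of all promoters and at 27.5% of all optimal promoter peaks, the initiator in 51.5% and at 34.1%. Any further cause was not tested. With unknown read depth, a gene with no peak cannot be called unbound.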
